A study of Mus musculus with 8 samples.

Results

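In CLIP libraries from mouse embryonic cortex, chromosome 16 carried more Ptbp2 tag clusters per megabase (Mb) than any other autosome or chromosome X. A tag is 1 sequenced RNA fragment that had been crosslinked to the protein. The tags of the 8 libraries were put together, and those sharing at least 1 nt on the same strand formed a cluster. Clusters with a height of 10 or more, the height being the largest number of tags over one base, were kept, and those on chromosome 16 are described here: 1268 of 22803 clusters in all. Chromosome 16 was itself picked for its cluster density in these tags, so its density is given as a description, without a test. On one side of the threshold 186 clusters of the chromosome had a height of exactly 10, and on the other 248 had a height of 9.

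Ptbp2 is the neuronal relative of the polypyrimidine tract binding protein, binds pyrimidine-rich stretches of RNA, many of them in introns, and represses or activates nearby exons. In the developing brain it is known for holding back splicing patterns of mature neurons. Because an intron is present in the nuclear precursor RNA until it is spliced, a long brain-expressed gene offers such a protein a long nuclear transcript. Chromosome 16 of the mouse holds several long genes of this kind, among them those for the splicing regulator Rbfox1, the guidance receptors Robo1 and Robo2 and the adhesion protein Lsamp.

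All libraries came from untreated cortex of CD1 embryos at embryonic day 18.5, with titles marked WT, and hold RNA crosslinked to Ptbp2. They fall into 4 libraries from each of 2 brains, called brain 1 and brain 2, so a p-value between brains measures the spread between libraries of 1 animal each and not between animals. Brain 1 gave 458293 to 545387 tags per library and brain 2 gave 228424 to 340852, of which 143373 tags in all, 4.63% of 3098854, lay on chromosome 16. Library 4 of brain 2 was the shallowest and stood apart: 18.6% of its rows repeated a position and strand of another row in the same library, against 8.09% to 12.8% in the other libraries, and 21.6% did on chromosome 16. No input RNA or control antibody was analysed here, so a dense locus and an abundant or long transcript cannot be told apart. Marker genes of cortex were not checked, because the deposited positions carry no gene annotation.

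Positions are those of the mm9 assembly, counted from 1. No annotation of that assembly was used, and genes are named as background knowledge of the chromosome. The 6 genes named were looked up in a RefSeq gene table of another assembly, GRCm38.p6. All 6 lay on chromosome 16 there, on the strand of the clusters, in the same order along the chromosome, and were longer than the stretch of clusters that bears their name. The names had been given by strand and rough position, so the matches of chromosome, strand and order were largely fixed beforehand. A seventh stretch has no name here. Whether a cluster lies in an exon, an intron or a UTR was not determined.

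Over its 98.3 Mb, measured to the end of its last tag, chromosome 16 held 12.9 clusters per Mb. The other autosomes, chromosomes 1 to 15 and 17 to 19, held 8.51 per Mb when pooled, with a lowest value of 7.31, a median of 8.72 and a highest value of 9.44 on chromosome 18. The ratio of chromosome 16 to the pooled rest was 1.52. At the density of the rest, chromosome 16 would have held 431 clusters fewer than it did, and this difference is called the excess below. The chromosome makes up 3.98% of the autosomal length and held 5.90% of the 21478 autosomal clusters.

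**Figure D1:**
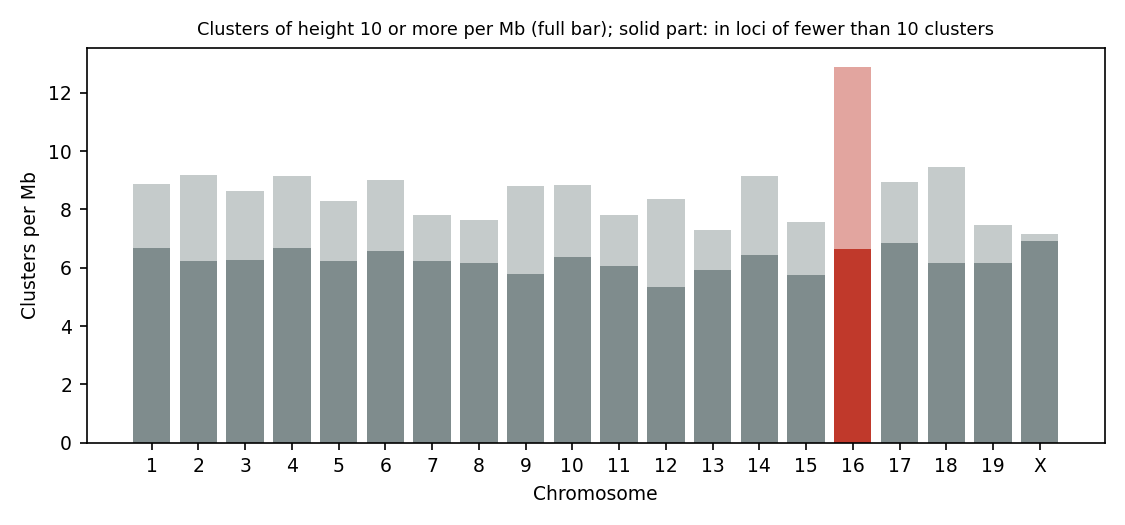
Clusters of height 10 or more per Mb on each autosome and on chromosome X, as the full bar. The solid lower part shows clusters in loci of fewer than 10 clusters. Chromosome 16, in red, reaches 12.9 per Mb against at most 9.44 on another autosome, while its solid part, at 6.65, lies within the range of 5.35 to 6.83 of the other autosomes.

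Other measures of the same tags were less raised. Chromosome 16 had 1458 tags per Mb against 1171 on the other autosomes (ratio 1.25), and 493 against 449 lone tags, those that overlap no other tag (ratio 1.10). It had 8.84 clusters per 1000 tags against 7.27. In each of these measures it still ranked first of the autosomes. Clusters linked at gaps of 50 kb or less on one strand were then taken as 1 locus, which gave 433 loci on the chromosome of 11428 in the genome. At 4.40 against 4.23 loci per Mb (ratio 1.04) chromosome 16 ranked 6th of 19 autosomes. Its loci were larger, with 2.93 clusters each on average against 2.01, and no other autosome passed 2.28. The clusters lay unevenly: the median 1-Mb bin of the chromosome held 7 clusters and the fullest held 165. Other autosomes were uneven too, with medians of 5 to 7. Their fullest bins held from 37 clusters on chromosome 19 to 236 on chromosome 2.

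A short list of loci held as many clusters as the excess. The 8 loci with the most clusters held 438, and without them 8.44 clusters per Mb were left, just under the pooled rest with all of its loci. The number 8 rests on the settings: it was 20 with loci linked at gaps of up to 20 kb, 5 at up to 100 kb, 4 with a height threshold of 5, 14 with one of 20, and 13 when each library counted a position and strand once. The first, at 74642173-75443639 on the minus strand, held 101 clusters and was assigned to Robo2, and the second, at 6809381-7335589 on the plus strand, held 98 and was assigned to Rbfox1. The other 6 held between 28 and 60 clusters each. Of the 433 loci, 311 (71.8%) were a single cluster, whereas the 12 largest held 518 clusters, 40.9% of those on the chromosome. The 12th was level with a 13th locus at 16 clusters and came first by its tags, and that 13th, at 6293118-6404054, lay among the Rbfox1 loci. Among the 50 loci with the most clusters in the genome, 6 were on chromosome 16, and 3 were among the first 20, although the largest elsewhere, with 247 clusters, was larger than any of them.

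What was left depended on what was taken from the other chromosomes. With the 8 largest loci removed from every autosome alike, chromosome 16 kept 8.44 clusters per Mb against a pooled 6.64 and at most 7.51 elsewhere. It stayed the densest until 21 loci had been removed from each, with 6.56 against at most 6.53, became second at 22 and was the 5th at 40. With loci of 10 or more clusters removed from all, 6.65 clusters per Mb were left on chromosome 16 against a pooled 6.24, a ratio of 1.07, and 3 autosomes lay above it. That step took 20 loci and 48.4% of the clusters from chromosome 16, against 17.4% to 36.0% from each other autosome. Such loci numbered 20.3 per 100 Mb on chromosome 16 and 9.23 on the rest. With loci of 5 or more clusters removed, 5.29 against 5.31 clusters per Mb were left, a ratio of 0.997, and chromosome 16 was 8th. With loci of 20 or more clusters removed it was still first, with 7.98 against 6.96. The ratio of 1.07 is not firm: it was 0.978 when loci were linked at gaps of up to 100 kb, 0.900 with a height threshold of 5 and 1.44 with one of 20.

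**Figure D2:**
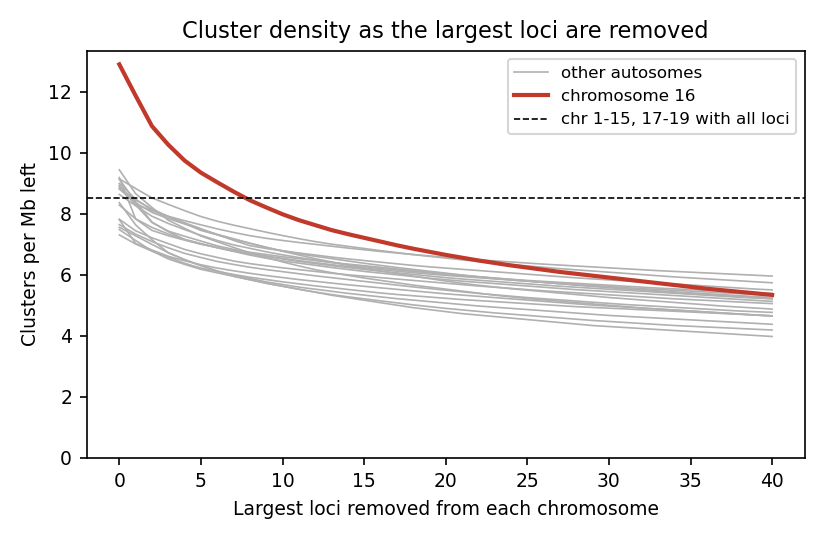
Clusters per Mb left on each autosome (vertical axis) after its largest loci were removed one by one (horizontal axis), with chromosome 16 in red, the other autosomes in grey and the pooled density of the others with all loci as a dashed line at 8.51. The red line meets the dashed line after 8 loci, is the highest through 21, and is the 5th at 40.

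The excess lay more on the plus strand. There chromosome 16 held 654 clusters, 6.65 per Mb against 3.28 on the other autosomes (ratio 2.03). On the minus strand it held 614, 6.25 against 5.23 per Mb (ratio 1.19). Of the excess, 331 clusters were on the plus strand and 99.7 on the minus strand. Chromosome 16 was thus 51.6% plus-strand by clusters where the rest was 38.6%. Outside the stretches described next the share was 40.7%, and within them 64.9%.

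The 12 largest loci fell into 7 stretches, each taken from the first to the last locus of one name with all clusters between them on that strand. Together the stretches covered 5.41 Mb, 5.51% of the chromosome, and held 572 clusters, 45.1% of its total. The 696 clusters outside them amount to 7.08 per Mb of the whole chromosome, which lies below the pooled rest with all its loci. The 7 stretches were chosen for their clusters, so these sums describe them and test nothing. Between 94.5% and 98.8% of all tags in a stretch lay on the strand of its clusters.

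Rbfox1 encodes a neuronal RNA-binding protein that regulates alternative exons. Its stretch, at 5894704-7335589 on the plus strand, spanned 1441 kb and held 209 clusters, 16.5% of the chromosome's clusters and a number equal to 48.5% of the excess. With this stretch alone removed, chromosome 16 held 10.8 clusters per Mb, still more than any other autosome with all its loci. Clusters averaged 14.5 per 100 kb and none of its 15 windows of 100 kb was empty. The fullest window, from 1000 to 1100 kb after the first base, held 34 clusters. Its clusters were numerous and not tall: the median height was 14, the highest 97, and 54 of the 209 reached 20. In brain 1 the clusters of the stretch took 1595, 1532, 1421 and 1427 CPM (tags per 1000000 tags of the same library) in libraries 1 to 4, and in brain 2 they took 972, 1045, 1182 and 1528 CPM. Libraries 1 to 3 of brain 2 lay below all of brain 1, and library 4 of brain 2, the library that stood apart, lay among them.

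The neighbouring guidance receptor genes Robo1 and Robo2 encode receptors for Slit ligands, which steer growing axons and migrating neurons. Robo2, at 74147601-75443639 on the minus strand, held 127 clusters over 1296 kb. With Rbfox1 it brought the number removed to 78.0% of the excess and left 9.48 clusters per Mb. Its 24 clusters in the fullest 100 kb lay 1000 to 1100 kb above its lowest position. Because the gene is read from the minus strand, this is toward the end from which transcription starts. Cluster tags of Robo2 came to 843, 864, 787 and 794 CPM in brain 1 and to 669, 656, 725 and 880 CPM in brain 2, where again library 4 alone reached brain 1 and was above all of it. Robo1, at 72154825-72518828 on the plus strand, held 51 clusters over 364 kb, and the first 200 kb of the stretch held 41 of them. Its clusters took 369, 332, 365 and 345 CPM in brain 1 and 254, 276, 308 and 477 CPM in brain 2, so that library 4 of brain 2 was the highest of all 8 and the other 3 of that brain were the lowest.

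Lsamp and Cadm2 encode adhesion proteins of the immunoglobulin superfamily on neurons. Lsamp, at 40267789-41717735 on the plus strand, was the longest stretch, 1450 kb, and the sparsest, with 80 clusters or 5.52 per 100 kb. The clusters thinned out between the ends: the first 100 kb held 11, the window from 800 to 900 kb held 0 and that from 1300 to 1400 kb held 15. Lsamp took 468, 530, 590 and 537 CPM in brain 1 and 471, 428, 437 and 473 CPM in brain 2, where all 4 libraries lay below 3 of those of brain 1 and 2 lay above its lowest. With it the clusters of the Rbfox1, Robo2 and Lsamp stretches came to 96.5% of the excess, counted against other autosomes that kept all their loci.

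Cadm2, at 67184122-67617377 on the minus strand, held 55 clusters over 433 kb, 12.7 per 100 kb. Of its tags, 43.1% lay in clusters, against 23.8% to 34.1% in the other stretches. It also had the tallest cluster of any stretch, 329 tags high, at 67283803-67283895. Cluster tags of Cadm2 came to 627, 552, 576 and 556 CPM in brain 1 and to 426, 483, 596 and 604 CPM in brain 2, and the brains overlapped.

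The other stretches were smaller. The unnamed stretch at 77380239-77661199 on the plus strand held 31 clusters over 281 kb and none was higher than 34. Its clusters took 196, 203, 207 and 143 CPM in brain 1 and 123, 155, 202 and 197 CPM in brain 2. Kalrn encodes a signalling protein of dendrites and their spines. Its stretch at 34422818-34571607 on the minus strand held 19 clusters over 149 kb, with 110, 109, 126 and 87.3 CPM in brain 1 and 86.0, 122, 141 and 140 CPM in brain 2. In both stretches the brains overlapped. Per 1000 tags on the strand, the 7 stretches gave between 12.3 clusters (Lsamp) and 16.5 (Robo1), all above the 8.84 of the whole chromosome.

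**Figure D3:**
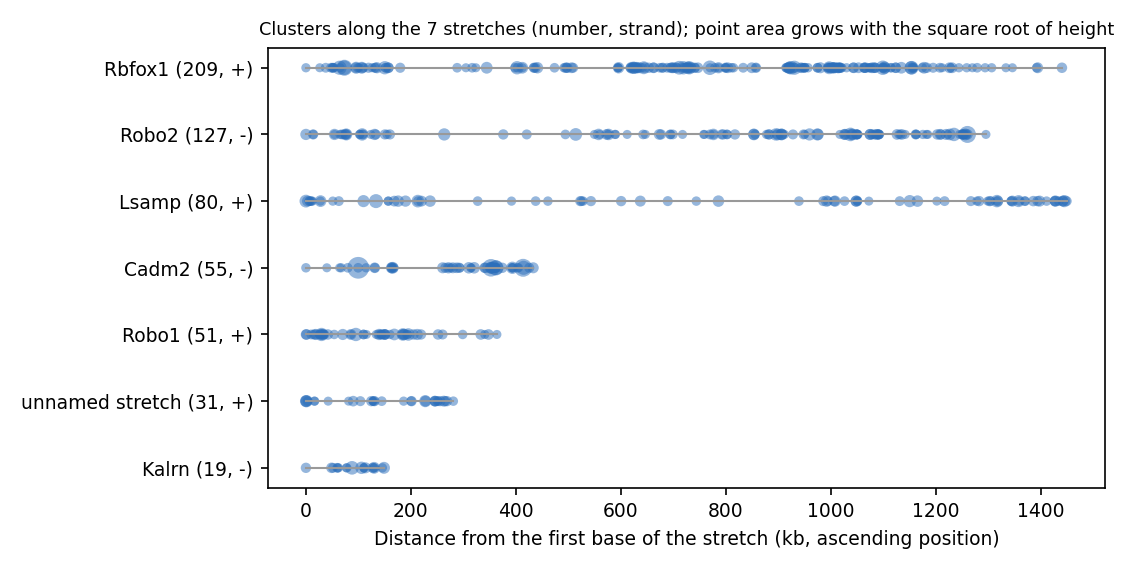
Each point is a cluster, placed by its distance in kb from the lowest position of its stretch, with point area growing with the square root of cluster height. The number of clusters and the strand follow each name. The Rbfox1 stretch shows several dense blocks, the Lsamp stretch is sparse in its middle, and the largest point is the Cadm2 cluster of height 329.

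Apart from their crowding, clusters of chromosome 16 resembled those of the other autosomes. The median height was 14 in both sets and the median width 44 nt against 42 nt. Both brains had tags in 99.1% of clusters in each set, and all 8 libraries in 23.9% against 23.7%. The ratio of chromosome 16 to the rest in clusters per Mb was 1.41 at heights of 10 to 14, 1.68 at 15 to 19, 1.65 at 20 to 49, 1.29 at 50 to 99 and 1.60 for the 13 clusters of 100 or more, so the excess was present in every height class. The median distance from a cluster to its nearest neighbour was 5384 nt on chromosome 16 and 16384 nt on the rest. Between loci of like size the distances were closer: in loci of 10 or more clusters the median was 1104 nt on chromosome 16 and 1037 nt on the rest, and in smaller loci it was 43557 nt and 48473 nt. Clusters more than 100 kb from any other made up 16.6% of those on chromosome 16 and 26.0% on the rest.

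The tallest clusters lay mostly elsewhere than the crowded stretches. The tallest, at 18533282-18533424 on the minus strand, was a locus of a single cluster with a height of 1980 and 2093 tags, 1.46% of all tags of the chromosome. It took 585, 609, 648 and 611 CPM in brain 1 and 841, 744, 625 and 994 CPM in brain 2. Only 3 of the 10 tallest were in a stretch, all in Cadm2, with heights of 329, 152 and 141. The cluster of height 200 at 17222480-17222514 on the plus strand and the Cadm2 cluster of height 152 at 67598098-67598142 had 65.5% and 76.3% of their tags at one position. A wide cluster at 57391540-57391787 on the minus strand, 248 nt long and 158 high, had 15.02% at its commonest position. No gene is named for the clusters outside the stretches.

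Each library alone placed chromosome 16 first. With clusters called in single libraries at a height of 3 or more, the density ratio of chromosome 16 to the other autosomes was 1.56, 1.67, 1.59 and 1.52 in libraries 1 to 4 of brain 1 and 1.42, 1.40, 1.43 and 1.37 in those of brain 2. Chromosome 16 ranked first of the autosomes in all 8. It was chosen on the pooled tags of these same libraries, so the ranks describe it and test nothing. The ratios of the brains, 1.59 ± 0.06 (SD, n = 4) and 1.40 ± 0.03 (SD, n = 4), did not overlap. Whether other autosomes separate the brains in this way was not examined. Without loci of 10 or more clusters the order of the means turned: brain 1 had a ratio of 1.10 ± 0.09 and brain 2 one of 1.28 ± 0.13 (SD, n = 4 each), with overlapping libraries. Brain 1 was also the deeper, and it gave 62.4% of the tags on which the chromosome was chosen. The parts of depth and of that choice in these differences were not tested. With clusters called in each brain alone at a height of 5 or more, 71.4% of the 1067 clusters of brain 2 on chromosome 16 overlapped a cluster of brain 1 (95% Clopper-Pearson interval 68.6% to 74.1%, which covers counting error only), against 66.3% on the other autosomes. Seen from brain 1, the overlapping part was 31.3% of 2402 clusters (29.5% to 33.2%), against 32.7% on the other autosomes.

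The share of all tags that lay on chromosome 16 was lower in brain 2. It was 4.71%, 4.81%, 4.72% and 4.64% in libraries 1 to 4 of brain 1 and 4.47%, 4.41%, 4.46% and 4.60% in brain 2, so every library of brain 2 lay below every library of brain 1. The difference of means was -0.23 percentage points (two-sided exact permutation test, p = 0.0286, the smallest that 4 against 4 libraries allow). Adjusted over 4 shares of overlapping sets of tags, the share inside clusters among them, that p was 0.0381. Among tags inside clusters of height 10 or more the share was 5.99% ± 0.09 in brain 1 and 5.56% ± 0.09 in brain 2 (SD, n = 4 each). The chromosome and its clusters were chosen on pooled tags, of which brain 1 gave 62.4%. For this reason no p is given for the share inside clusters. That choice also bears on the share of all tags. Its p draws on tags that picked the chromosome, and nothing is concluded from it. Among tags outside loci of 10 or more clusters the share was 3.93% ± 0.06 and 3.87% ± 0.05, and the libraries overlapped (exact p = 0.229). The loci left out were picked on the same pooled tags, so leaving them out bears on this difference too. Nothing is concluded from this p either. The 7 stretches took 1.27% to 1.41% of all tags in brain 1 and 0.978% to 1.25% in brain 2, whereas the rest of chromosome 16 took 3.31% to 3.40% and 3.35% to 3.49%, which overlap. Outside chromosome 16, loci of 10 or more clusters took 13.3% ± 0.69 of the tags of the other autosomes in brain 1 and 11.6% ± 1.31 in brain 2 (SD, n = 4 each), with overlapping libraries.

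Tags per locus were compared between the brains over the whole genome with limma voom, which gave 1025 loci enough tags to test, 58 of them on chromosome 16. At an adjusted p under 0.05, 5 of the 58 were lower in brain 2 and 3 were higher, beside 1.27% lower and 2.63% higher among all loci tested. The median log2 difference was -0.09 over the 58 and -0.03 over all 1025. Each of the 5 lower loci was among the 12 largest, of which 10 had a log2 difference below 0 and 0 were called higher, with a median of -0.24. These 12 were chosen by clusters called on pooled tags, to which brain 1 gave more. Loci of 10 or more clusters tended below 0 elsewhere too: their median was -0.27 over the 20 on chromosome 16 and -0.13 over the 219 on the other autosomes, where 7 were called lower and 2 higher. Among loci with fewer than 10 clusters the medians were 0.04 and 0.05.

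Of the 5 lower loci 3 lie in the Rbfox1 stretch and are not independent of each other. The locus at 6489276-6752563 fell by 0.43 ± 0.10 (SE of the log2 difference, adjusted p = 0.00997), that at 5894704-6074455 by 0.48 ± 0.13 (adjusted p = 0.0201) and that at 6809381-7335589 by 0.31 ± 0.08 (adjusted p = 0.0205). The Robo2 locus at 74642173-75443639 fell by 0.31 ± 0.08 (adjusted p = 0.0173) and the Lsamp locus at 41535061-41717735 by 0.65 ± 0.18 (adjusted p = 0.0205). After scaling the libraries of the brains did not overlap at any of the 5. The calls rest on these same values, so this separation adds nothing to them. How many of all loci tested separate in this way was not counted. In CPM without that scaling, library 4 of brain 2 lay among brain 1 at the 3 Rbfox1 loci. At the Robo2 locus the brains did not overlap without it either. By plain CPM the Lsamp locus took 156, 185, 228 and 204 in brain 1 and 138, 128, 147 and 83.2 in brain 2. Scaled by total tags, the log2 differences were of like size, from -0.62 at Lsamp to -0.29 at 6809381, but all 5 calls were lost. When each library counted a position and strand once, the differences shrank to -0.31 at 6489276, -0.21 at 5894704, -0.17 at 6809381, -0.19 at Robo2 and -0.40 at Lsamp, and the first alone was still called. With all tags within the locus counted, a setting not planned beforehand, all 5 were still called. The differences were then -0.38 at 6489276, -0.36 at 5894704, -0.33 at 6809381, -0.31 at Robo2 and -0.31 at Lsamp. The loci themselves had been picked on the same tags. All 5 calls were lost without library 3 of brain 2, while 1 was left without library 1 of brain 2. Without library 1 or 2 of brain 1 there were 3 and 4 lower calls on the chromosome, and without library 2 or 4 of brain 2 there were 3 each. Lsamp moved to -0.40 without library 4 of brain 2. The scale factor of library 4 of brain 2 was 1.21, against 0.915 to 1.01 in the other 7.

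The other large loci were not called. Robo1 differed by -0.16 ± 0.11, the Cadm2 loci at 67184122 and 67444701 by -0.31 ± 0.14 (adjusted p = 0.218) and -0.08 ± 0.10, and the unnamed stretch by -0.15 ± 0.15. The second Lsamp locus, at 40267789, differed by -0.06 ± 0.15. The second Robo2 locus, at 74147601, and the Kalrn locus had values above 0, at 0.27 ± 0.17 and 0.16 ± 0.17. Within Robo2 and within Lsamp, one locus was thus called lower and another was not, and the difference between the loci was not tested.

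The 3 loci higher in brain 2 were small and carried tall clusters. They were 3 of the 38 tested loci of the chromosome with fewer than 10 clusters, and 0 of the 38 were called lower. On the other autosomes 22 of 696 such loci were called higher and 0 lower. Drops were harder to call: in simulated counts over all 1025 loci, the test recovered 84% of 2-fold rises in brain 2. It recovered 44% of 2-fold drops. With few clusters, a locus needed many tags per cluster to be tested. The locus at 17222359-17222514 on the plus strand, of 2 clusters, rose by 0.94 ± 0.19 and the single cluster at 57391540 on the minus strand by 0.75 ± 0.15 (adjusted p = 0.00115 for each). The latter took 106, 89.5, 128 and 136 CPM in brain 1 and 191, 185, 179 and 223 CPM in brain 2. Without the filter on low counts both calls were lost (adjusted p = 0.210 and 0.301), and with repeated positions counted once the locus at 17222359 had too few tags to test. Without the filter every named locus had a lower log2 difference than with it. The Robo2 locus at 74642173 went from -0.31 to -0.51, and the 5 lower calls were kept. The tallest cluster, at 18533282, rose by 0.33 ± 0.09 (adjusted p = 0.0188), and its libraries overlapped after scaling. That call was lost without library 1 of brain 1, without library 1, 2 or 4 of brain 2, with scaling by total tags (adjusted p = 0.169), with letters of the titles summed and with repeated positions counted once, and its difference was 0.12 without the filter. Tested singly, 23 clusters of chromosome 16 were among 466 in the genome with enough tags. By limma voom 0 of the 23 were called, beside 1.07% higher and 0.215% lower of all 466, and 8 of the 23 had an unadjusted p under 0.05, as had 89 of the 466 (19.1%). In that fit, with its own scaling, the cluster at 18533282 differed by 0.17 ± 0.11 (adjusted p = 0.397) and that at 57391540 by 0.58 ± 0.16 (adjusted p = 0.0558).

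**Figure D4:**
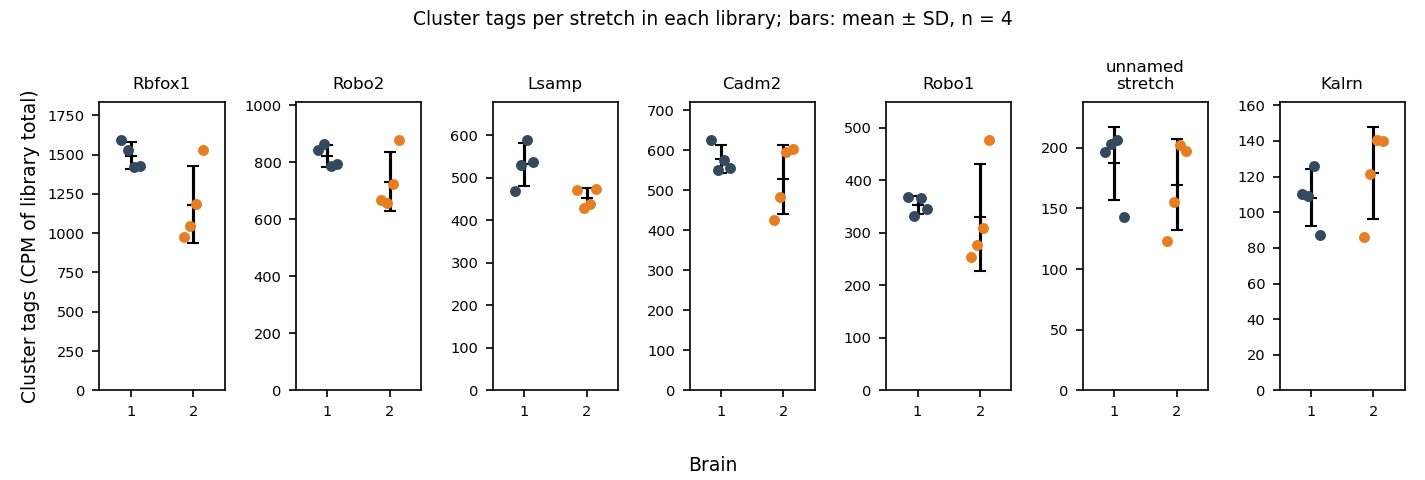
Cluster tags of each stretch in CPM of the library total, by brain, with 1 point per library and the mean ± SD of 4 libraries, on axes that start at 0. Rbfox1 averages 1494 ± 84.9 in brain 1 and 1182 ± 247 in brain 2, and in Rbfox1, Robo2 and Robo1 the highest point of brain 2, library 4, lies apart from its other 3.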

How the data were processed

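The deposited file lists mapped tags with position, strand and a sample label, from which each library's tags were taken. Its score column, as the authors deposited it, held no measurement used here. The submitters' processing notes name Bowtie and the builds mm8 and mm9. The last tag of chromosome 1 ends at 197194446, past that chromosome's end in mm8 and within mm9. The treatment of repeated reads before deposit is not stated in those notes. Members, gene list and tests were chosen with earlier results of these data known.

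Tags were counted per cluster and locus with Python 3.11.15. Density is clusters divided by the last tag end. Loci join clusters at gaps of 50 kb or less. Named were the 12 loci with most clusters, the 10 tallest clusters and calls between brains. Brains were compared with limma 3.58.1 (voom, R 4.3.3, trimmed-mean scaling, Benjamini-Hochberg), checked on simulated data, or with two-sided exact permutation tests. Tested features needed 15 tags in all and, in 4 or more libraries, a CPM equal to 10 tags at the median depth. No pair of libraries of a brain was identical (chi-square per degree of freedom over loci 1.05 to 1.57). Alternatives varied height, overlap, gaps, length, repeated positions, scaling, filter, test and libraries used. The letters a and b in the titles, whose meaning the labels do not give, were summed or used as a random block. Sequences and gene annotation of mm9 were not used here.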

Additional observations from a re-analysis of the deposited data

Results flagged for a closer look

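In 4 of 86 groups of 4 libraries examined, 1 library lay far from the other 3 of its brain, at a limit that chance passes in about 1 in 20 groups. The unnamed stretch at 77380239 accounts for 2 of them, as a locus and as a stretch of the same clusters: library 4 of brain 1 took 142.7 CPM, against 196 to 207 CPM in the other libraries of that brain. At the locus at 17222359, library 3 of brain 1 took 91.4 CPM, against 52.4 to 58.7 CPM in the others. At the cluster at 43630067, library 2 of brain 1 took 52.4 CPM, against 69.7 to 71.8 CPM.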

How the results depend on the processing

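Chromosome 16 was the densest autosome under every alternative run, with a density ratio of 1.52 that moved to 1.39 at a height of 5 or more and to 1.38 for brain 2 alone at that height, and lay at 1.53 to 1.57 with a library left out. The number of loci that held the excess, 8, was 4 at a height of 5, 14 at a height of 20, 13 with repeated positions counted once, 5 for brain 1 alone at a height of 5, 20 with gaps of up to 20 kb, 5 with gaps of up to 100 kb, and 10 to 12 with a library left out. The ratio left without loci of 10 or more clusters, 1.07, was 0.900 at a height of 5, 0.916 for brain 1 alone at that height, 0.978 with gaps of up to 100 kb, 1.44 at a height of 20, 1.25 with repeated positions counted once, and 1.07 to 1.22 with a library left out. These limits depend on how loci are cut, and the cause of each move was not tested.

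The difference in the share of tags was -0.058 outside loci of 10 or more clusters, and -0.27 to -0.20 with a library left out, where the p of 0.0571 is the smallest possible. On chromosome 16, 8 loci were called. The count was 2 with scaling by total tags, 5 without a filter, 4 with libraries of one letter summed, 2 with repeated positions counted once, and 3 to 9 with a library left out. Of the 8 themselves these settings kept 2, 5, 4, 2 (of 7 tested) and 3 to 8. Of clusters, 0 were called, 2 with scaling by total tags, 1 by the quasi-Poisson test and 0 to 1 with a library left out. Scaling by total tags moved the median log2 difference of all clusters from 0.02 to 0.16. Over the genome 40 loci were called, 16 with scaling by total tags, 25 with letters summed, 19 with repeated positions counted once, 56 by the quasi-Poisson test and 87 with all tags of a locus. The log2 difference of the Cadm2 locus at 67444701 changed sign to 0.022 with repeated positions counted once and ranged from -0.149 to 0.0076 with a library left out. That of the Lsamp locus at 40267789 changed to 0.00997 with repeated positions counted once and ranged from -0.127 to 0.106 with a library left out, above 0 without library 3 of either brain. That of Kalrn changed to -0.041 without a filter, where every named locus had a lower value than with it. The replicate numbers did not pair the libraries (correlations of same-numbered libraries -0.09 to 0.03), and in the fit that took the number as a replicate block 45 loci were called, 8 of them on chromosome 16. Cluster height is bounded by depth, and brain 2 was the shallower. The part of depth in the number of clusters seen in each brain was not tested.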
